A study of Mus musculus with 30 samples.

Results

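The chemokines and chemokine receptors described here are the genes whose symbols consist of Ccl, Cxcl, Ccr or Cxcr followed directly by a number. They number 45 of the 18194 genes that had a probe set paired with exactly 1 gene on the array, and comprise 31 ligands (18 Ccl and 13 Cxcl genes) and 14 receptors (9 Ccr and 5 Cxcr genes). Each gene was read from 1 probe set, the one with the highest mean over all 30 arrays, and values are deposited log2 signals. The study measured RNA of microvascular fragments isolated from mouse brain, comparing mice whose brain vessels lack most pericytes with their controls.

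In the first model, 4 ret mutants (pdgfbret/ret, strain C57/B6/J, 7 to 10 months old) were set against 4 ret controls (pdgfbret/+, the same strain, 8 to 10 months old), and no brain region was named. Both groups carry the deletion of the PDGF-B retention motif, the controls on one allele. In the second model, R26P mutants (Tie2Cre, R26P+/0, pdgfb-/-) were set against R26P controls (R26P+/0, pdgfb+/+), with 4 cerebrum and 4 cerebellum arrays per genotype on a mixed C57/SV129 background. Both carry 1 copy of a human PDGF-B transgene at the Rosa 26 locus, silent in the controls and switched on in the mutants by Tie2Cre, a Cre recombinase active in endothelium and, as background knowledge, also in blood-forming cells. The labels give the R26P mice as 1 year old in the title and as 2 months old in the age field. The last groups were wild-type (WT) mice (C57/B6/J Notch3+/+, 2 months old), with 3 cerebellum and 3 cerebrum arrays. The deposited values of these WT arrays have another floor than the other 24 arrays, so they were treated as normalized apart and compared only with each other.

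Chemokines are small secreted proteins that guide the movement of leukocytes and other cells through receptors coupled to G proteins. They fall into CC and CXC classes by the spacing of their first cysteines, and several ligands usually share a receptor. In the vessel wall they are held on the endothelial surface and act on leukocyte arrest and crossing, while Cxcl12 with its receptor Cxcr4 is known for roles in vessel growth and the homing of progenitor cells.

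The vascular origin of the samples was visible in the markers. All 8 endothelial markers lay above 4 on every array, with a mean level of 12.6 to 13.6. Of the pericyte markers, 7 of 7 tested fell in the ret mutants and in both regions of the R26P mutants, and their mean level was 6.44 to 7.44 in ret mutants against 10.0 to 10.5 in ret controls. Pdgfb itself measured 4.73 to 8.01 in R26P mutant cerebrum against 12.5 to 12.9 in R26P control cerebrum, and 4.73 to 7.51 in mutant cerebellum against 12.1 to 12.5 in control cerebellum. In the ret model, where only the retention motif is deleted, its level (11.7 to 12.5 in mutants, 11.7 to 12.1 in controls) does not check the genotype. The array reads RNA of the whole fragment, so fewer cells of a type and less RNA per cell cannot be told apart.

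A gene was tested when its signal exceeded 4 on at least 3 of the 30 arrays. This left 21 of the 45 members (46.7%), against 61.8% of all genes, and divided ligands from receptors: 18 of 31 ligands were tested, but only 3 of 14 receptors (Ccr1, Ccr2 and Ccr6) and no Cxcr gene. The remaining 24 members were 13 ligands and 11 receptors. Of these, 21 never exceeded 4 and had a highest signal of 2.87 on any array. They included Ccl20, the ligand of Ccr6, Cxcr2, the receptor of Cxcl1 and Cxcl2, Cxcr3, the receptor of Cxcl9, Cxcl10 and Cxcl11, and Cxcr6, the receptor of Cxcl16. A low signal bounds what these probe sets detect and does not show that the RNA is absent.

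**Figure D1:**
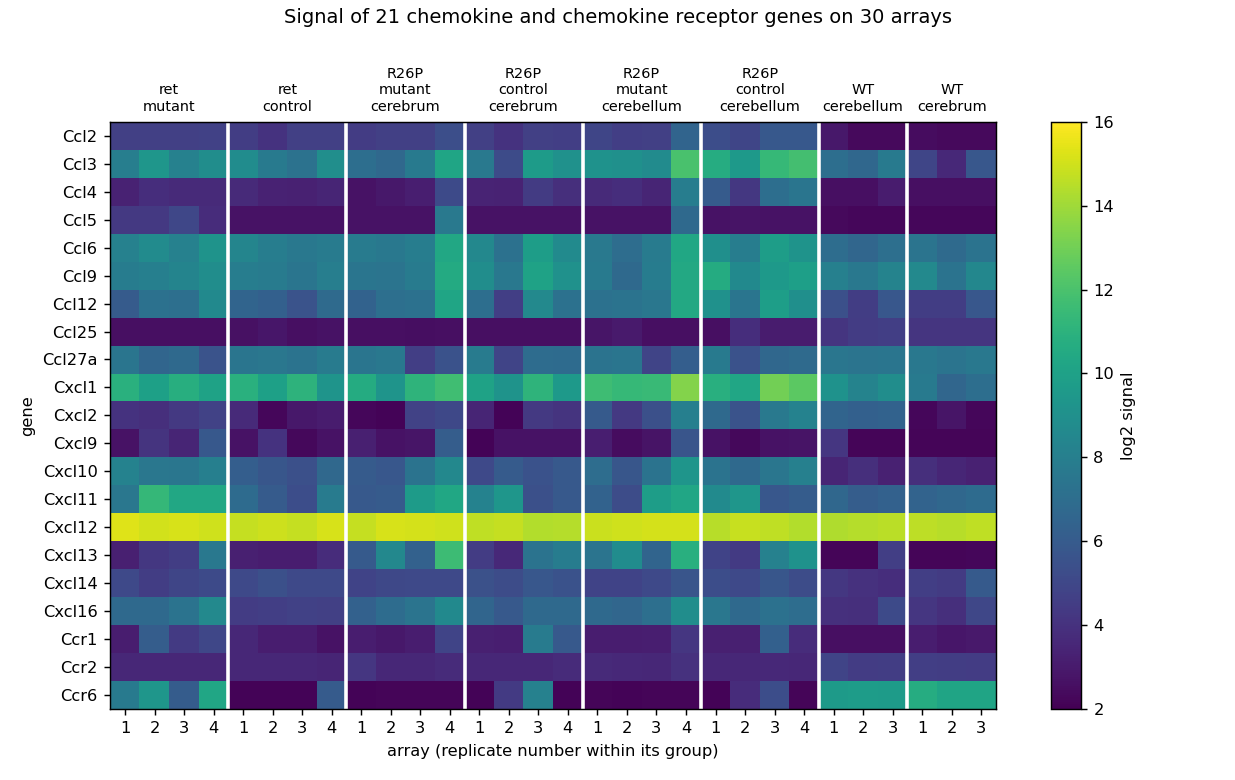
Log2 signal of the 21 tested chemokine and receptor genes (rows) on each of the 30 arrays (columns, grouped by genotype and region). Cxcl12 has a high signal on every array, Ccr6 spans 2.16 to 10.64, with ret controls and R26P controls spread within their groups, and R26P mutant number 4 stands out across many rows in both of its regions.

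The number of members with a signal above 4 on every array of a group was 13 in ret mutants and 12 in ret controls. It was 13 in R26P mutant cerebrum against 12 in R26P control cerebrum, and 14 in R26P mutant cerebellum against 15 in R26P control cerebellum. In WT it was 12 in cerebellum and 11 in cerebrum. Counting members, of the 45, above 4 on any array of the group, ret mutants had 18 and ret controls 14. R26P mutant cerebrum had 21 against 17 in its controls, and R26P mutant cerebellum had 20 against 18. The 21 include Ccl8 and Cxcr4, which were not tested, and not Ccr6 or Ccl25. In mutant cerebrum, Ccl4, Ccl5, Ccl8, Ccr1, Cxcl9 and Cxcr4 exceeded 4 on the array of number 4 alone. These counts were not made over all genes.

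In ret mutants, 5 ligand genes (Cxcl16, Cxcl10, Ccl5, Cxcl2 and Cxcl11) and the receptor Ccr6 rose, and no member fell. These 6 of 21 tested members (28.6%) compare with 8.00% of the 11243 genes tested that rose in the same comparison (limma, Benjamini-Hochberg adjusted p below 0.05). Ccl5 counts in the 6 and the 21, although it passed the filter through mutant arrays alone. With no filter, 4 of the 45 members rose, against 3.12% of all 18194 genes. The median log2 change of the 21 members was 0.63, against 0.01 for all genes tested. For 5 of the 21 members, every mutant array lay above every control array, against 11.7% of all genes tested. These were the called members other than Cxcl11, and so include Ccl5.

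Cxcl16 is a chemokine that exists in a membrane-anchored and a shed form and is the ligand of Cxcr6. Its signal was 6.80, 6.80, 7.31 and 8.59 in the ret mutants, against 4.48, 4.61, 4.69 and 4.68 in the ret controls. The controls lay within a narrow band and every mutant lay more than 2 log2 units above it. The difference was 2.76 ± 0.38 (SE) on the log2 scale, or 6.79-fold (limma adjusted p = 0.00328). A second Cxcl16 probe set showed the same separation, at 6.23 to 7.83 in mutants and 4.12 to 5.34 in controls.

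Cxcl10 is an interferon-inducible ligand of Cxcr3 that attracts activated T cells and natural killer cells. It reached 8.19, 7.55, 7.47 and 8.07 in the ret mutants, against 6.17, 5.73, 5.42 and 6.75 in the ret controls, without overlap. The difference was 1.80 ± 0.31 (SE), or 3.48-fold (limma adjusted p = 0.00763). Cxcl9, another interferon-inducible Cxcr3 ligand, did not follow as closely: its signal was 2.71, 4.11, 3.45 and 5.83 in mutants and 2.67, 4.07, 2.32 and 2.67 in controls (difference 1.09 ± 0.69, limma adjusted p = 0.311). Cxcl11 encodes a further ligand of this receptor in other strains and species, but RefSeq lists the gene as a transcribed pseudogene in the mouse reference, so its signal is read here as RNA. It measured 7.56, 11.35, 10.40 and 10.42 in mutants, against 6.90, 6.04, 5.32 and 7.84 in controls. Its groups overlapped, since mutant 1 lay below control 4, and the difference of 3.41 ± 0.87 (SE) passed the test (10.6-fold, limma adjusted p = 0.0358). The call was lost without any of ret controls 1, 2 or 3 (adjusted p = 0.0732, 0.0948 and 0.0901) or ret mutants 2, 3 or 4 (adjusted p = 0.0865, 0.0881 and 0.0735). A second, dimmer Cxcl11 probe set averaged 3.94 ± 0.46 in mutants and 3.48 ± 0.21 in controls (SD, n = 4 each).

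Ccl5, also named RANTES, attracts T cells and monocytes. Its signal was 4.33, 4.34, 4.99 and 3.78 in the ret mutants, while all 4 ret controls were at 2.71. The difference was 1.65 ± 0.22 (SE, limma adjusted p = 0.00321), and the call held when any single array was left out. The controls share 1 repeated background value, so the size of the difference has no exact fold. Ccl5 passed the filter through mutant arrays alone, since the 5 arrays above 4 all came from ret or R26P mutants.

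Cxcl2 attracts neutrophils through Cxcr2. It measured 4.06, 3.90, 4.32 and 4.78 in the ret mutants, against 3.65, 2.26, 2.92 and 3.06 in the ret controls. The groups did not overlap, but control 1 came within 0.25 of mutant 2. The difference was 1.29 ± 0.31 (SE, limma adjusted p = 0.0280), with all controls below 4. Leaving out ret control 2, 3 or 4 (adjusted p = 0.0540, 0.0700 and 0.0546) or ret mutant 3 or 4 (adjusted p = 0.0696 and 0.0540) ended the call. Cxcl1, which acts on the same receptor, measured 10.88, 9.94, 10.79 and 10.06 in mutants and 10.87, 9.97, 11.04 and 9.24 in controls, with a difference of 0.14 ± 0.43 (limma adjusted p = 0.858).

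The promoters of Cxcl10 and Cxcl2 are shown because both genes rose in ret mutants and differed between brain regions in other groups, described further on. The sequences are from RefSeq (GRCm38.p6), run from 250 bases before to 50 bases after the annotated start, and are written 5′ to 3′ on the strand of the gene. Capitals mark matches to the core of an interferon response element (GAAA, any 2 bases, GAAA) in Cxcl10 (chr5:92348840-92349139, minus strand), and to an NF-kappaB core (GGG, any 2 bases, TTTCC) in Cxcl2 (chr5:90903649-90903948, plus strand).
Cxcl10: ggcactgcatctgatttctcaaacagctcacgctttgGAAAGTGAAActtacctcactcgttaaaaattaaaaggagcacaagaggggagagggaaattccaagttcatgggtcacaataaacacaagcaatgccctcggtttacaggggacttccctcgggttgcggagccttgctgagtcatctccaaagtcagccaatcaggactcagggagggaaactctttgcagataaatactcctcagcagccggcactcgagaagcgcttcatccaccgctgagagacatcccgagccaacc
Cxcl2: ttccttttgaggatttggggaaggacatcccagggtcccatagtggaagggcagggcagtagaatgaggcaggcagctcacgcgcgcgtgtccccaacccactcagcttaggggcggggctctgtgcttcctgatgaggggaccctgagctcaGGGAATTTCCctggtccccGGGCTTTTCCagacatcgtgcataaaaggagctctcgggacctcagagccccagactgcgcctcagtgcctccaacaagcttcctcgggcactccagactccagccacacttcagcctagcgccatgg
The match in Cxcl10 begins 213 bases before the start, and those in Cxcl2 begin 97 and 78 bases before it. Searching both strands, the interferon core occurred in 3.44% and the NF-kappaB core in 1.63% of the 32851 mouse promoters of this length. Among the 16 tested members with a promoter in the table, the interferon core occurred in Cxcl10 and Cxcl14, and the NF-kappaB core in Ccl9, Cxcl1 and Cxcl2. The TATA box letters TATAAA, also searched, occurred in 13.6% of all promoters and in those of Ccl12, Ccl25, Ccl9, Cxcl13 and Cxcl9. A match describes letters and not a bound site. Each search used 1 fixed pattern, so a promoter without a match, as Cxcl10 for NF-kappaB, may still hold other forms of a site.

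Among the receptors, Ccr6, the receptor of Ccl20 on B cells, some T cells and dendritic cells, measured 7.79, 9.33, 6.06 and 10.30 in the ret mutants, against 2.16, 2.16, 2.16 and 5.99 in the ret controls. Controls 1, 2 and 3 were at the floor of the normalization, while control 4 came within 0.1 of the lowest mutant. The difference was 5.25 ± 1.18 (SE), with limma adjusted p = 0.0224. Because controls sit at the floor, no exact fold is given. The call was lost without ret control 1, 2 or 3 (adjusted p = 0.0635, 0.0676 and 0.0624) or ret mutant 2 (adjusted p = 0.0628). Ccr1, a receptor of Ccl3, Ccl5, Ccl6 and Ccl9 on myeloid cells, measured 3.14, 6.15, 4.36 and 4.99 in mutants and 3.56, 3.13, 3.14 and 2.66 in controls. Its groups overlapped through mutant 1, and the difference of 1.54 ± 0.58 did not pass (limma adjusted p = 0.112). Ccr2, the monocyte receptor of Ccl2 and Ccl12, was at 3.57 in every mutant and at 3.45 to 3.57 in controls. The 3.57 is 1 repeated value, shared by controls 1, 2 and 3, so this probe set may read background and cannot show a change. A second, dimmer Ccr2 probe set measured 3.44, 3.21, 4.39 and 3.48 in mutants and 2.53 to 2.64 in controls, without overlap.

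Cxcr4, the receptor of Cxcl12, had 2 arrays above 4 and so was not among the genes tested. Its signal was 3.15, 3.55, 3.89 and 3.62 in the ret mutants, against 2.43, 2.28, 2.37 and 2.25 in the ret controls, with no overlap. With every gene tested and no filter, the difference was 1.22 ± 0.15 (SE, limma adjusted p = 0.00887). That setting called 4 members in ret mutants, against 3.12% of all 18194 genes that rose. It called Cxcl16, Cxcl10, Ccl5 and Cxcr4, and lost Ccr6, Cxcl11 and Cxcl2 (limma adjusted p = 0.0700, 0.101 and 0.0805).

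**Figure D2:**
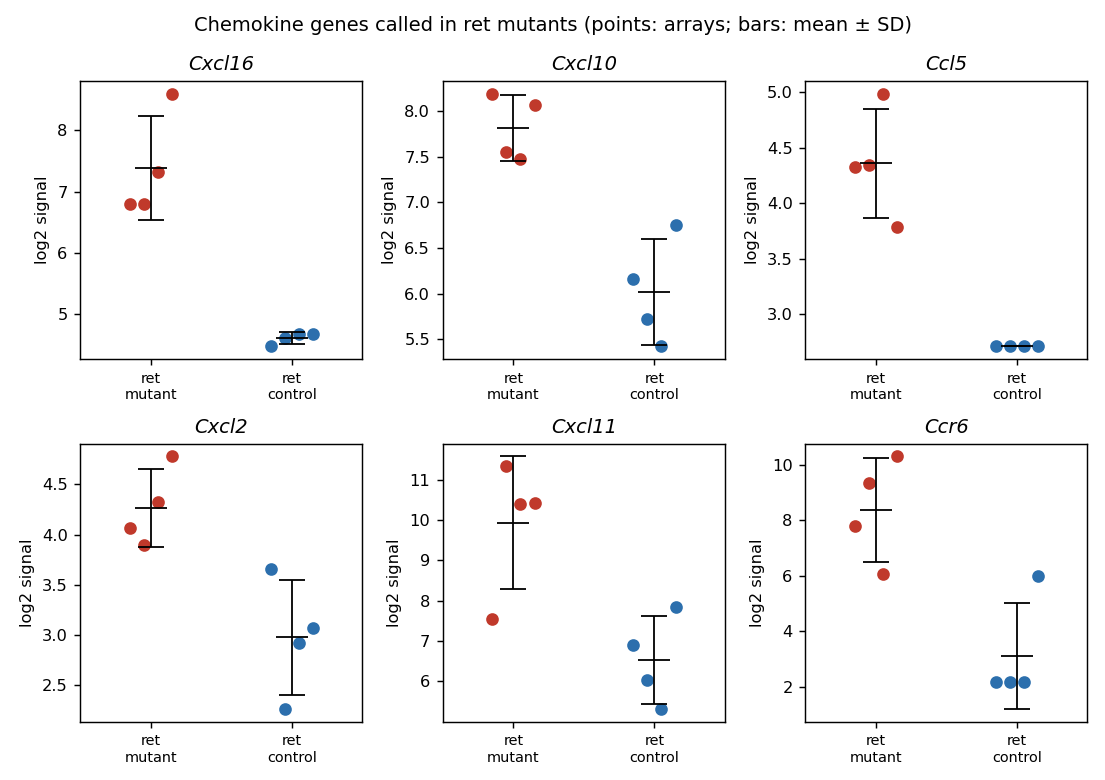
Log2 signal of the 6 members called in ret mutants, 1 panel per gene, with each array as a point, ret mutants left of ret controls, and bars at the group mean ± SD. Cxcl16, Cxcl10, Ccl5 and Cxcl2 separate the groups, Cxcl11 overlaps, and Ccr6 is apart only by the step between 6.06 and 5.99.

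Ccl2, Ccl12, Ccl3, Ccl6 and Ccl9 did not pass the test in ret mutants. Ccl2, a monocyte attractant, lay at 4.63, 4.63, 4.63 and 4.69 in mutants and at 4.56, 4.04, 4.63 and 4.63 in controls. The value 4.63 recurs unchanged on ret and R26P arrays, so it may be background. Ccl12, the close mouse relative of Ccl2, ranged over 6.02 to 8.64 in mutants and 5.59 to 6.83 in controls (difference 0.93, limma adjusted p = 0.27). These ranges overlapped, as did those of the Ccr1 ligands. Ccl3 measured 8.01, 9.37, 8.18 and 8.86 in mutants and 8.83, 7.79, 7.26 and 8.93 in controls (limma adjusted p = 0.586). Ccl6 measured 8.15, 8.73, 8.15 and 9.21 in mutants and 8.38, 7.92, 7.59 and 7.83 in controls (limma adjusted p = 0.156). Ccl9 measured 7.90, 8.05, 8.34 and 8.88 in mutants and 7.94, 7.84, 7.43 and 8.00 in controls (limma adjusted p = 0.182). Each of the 3 was highest in mutant 4 or 2 but not apart from the controls. A second Ccl6 probe set differed from the first, averaging 7.11 ± 0.41 in mutants and 5.84 ± 0.40 in controls (SD, n = 4 each). The differences of Ccl4 and Ccl25 were 0.20 and -0.12 on the log2 scale, and neither passed.

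The B cell attractant Cxcl13 measured 3.23, 4.28, 4.56 and 7.60 in ret mutants and 3.10 to 3.76 in ret controls, a difference of 1.61 ± 0.84 that did not pass (limma adjusted p = 0.23). Ccl27a was lower by value in mutants, at 7.45, 6.59, 6.80 and 5.59 against 7.43, 7.56, 7.35 and 7.84 in controls, and did not pass (difference -0.94 ± 0.36, limma adjusted p = 0.114). Near-identical copies of Ccl27a exist in the mouse genome, so its signal is uncertain. Cxcl12 measured 15.34, 15.05, 15.17 and 14.99 in mutants and 14.78, 14.91, 14.79 and 15.13 in controls (difference 0.24 ± 0.11, limma adjusted p = 0.184). Cxcl14 averaged 0.26 log2 units lower in mutants, and did not pass (limma adjusted p = 0.272).

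Markers of other cells moved with the ret genotype. Astrocyte markers fell in 4 of 5 tested (median log2 change -1.22), the 1 oligodendrocyte marker tested, Mbp, fell, and 1 of 4 neuron markers, Rbfox3, rose. Plac8, a gene of neutrophils, monocytes and other leukocytes, measured 7.96 to 10.15 in ret mutants and 2.77 to 4.50 in ret controls, while S100a8, S100a9, Ngp and Camp did not pass the filter. The 12 microglia and macrophage markers had a mean level of 9.33 to 10.4 in mutants and 8.80 to 9.30 in controls, and 1 of them, Lyz2, rose. T and natural killer cell markers had a mean level of 2.23 to 2.51 in mutants and 2.22 to 2.25 in controls, and none of the 8 exceeded 4 on any ret array. The pituitary hormone gene Gh measured 14.90, 13.68, 2.84 and 15.23 in ret mutants and 2.17 to 2.47 in ret controls. Mutant 3, the array without pituitary signal, measured 7.31 for Cxcl16, 7.47 for Cxcl10, 4.99 for Ccl5 and 6.06 for Ccr6. With the pituitary level as a covariate 1 member was called, Ccl5 (log2 change 2.33). The change of the others with that covariate was 2.52 for Cxcl16 (limma adjusted p = 0.0618), 1.46 for Cxcl10 (0.132), 1.28 for Cxcl2 (0.206), 3.80 for Cxcl11 (0.184) and 2.80 for Ccr6 (0.349). Gh was high in 3 ret mutants and in no ret control, so this covariate runs close to the genotype and the fit leans on mutant 3. The fit therefore cannot part pituitary signal from genotype for any of these genes. In it the change of Ccr6 moved by more than 1.5 times and its call was lost. The changes of Cxcl16, Cxcl10, Cxcl2 and Cxcl11 stayed near their size as their calls were lost. Leaving out the 3 arrays of high Gh leaves mutant 3 alone against 4 controls, with the spread taken from the controls and the lone array assumed to vary like them. In that fit Ccl5 and Cxcl16 were called, and the change of Ccr6 was 2.94 (limma adjusted p = 0.394). The part of the other markers in these chemokine values was not tested.

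In R26P mutants, Cxcl12 rose in both brain regions and Cxcl14 fell in the cerebrum. In the cerebrum, these 2 of 21 tested members (9.52%) compare with 8.35% of all genes that rose, 10.3% that fell and 18.7% called in either direction. In the cerebellum, Cxcl12 alone was called (4.76% of members), against 6.94% of all genes that rose and 15.6% called in either direction. The median log2 change of the members was 0.16 in the cerebrum and -0.27 in the cerebellum, against 0.01 and 0.00 for all genes tested.

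Beside these calls, astrocyte markers fell in 5 of 5 tested in the cerebrum (median -2.39) and 4 of 5 in the cerebellum, smooth muscle markers in 5 of 5 and 1 of 5, and perivascular fibroblast markers in 4 of 5 in each region. Endothelial markers rose in 2 of 8 tested in each region. Their mean level was 13.17 to 13.44 in mutant cerebrum and 12.94 to 13.19 in control cerebrum. In the cerebellum it was 13.37 to 13.41 in mutants and 12.82 to 13.14 in controls. The part of all these markers in the values of Cxcl12 and Cxcl14 was not tested.

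Cxcl12, produced by endothelium and mural cells and read by Cxcr4 and Ackr3, measured 14.79, 15.13, 15.09 and 14.98 in R26P mutant cerebrum, against 14.65, 14.77, 14.38 and 14.45 in R26P control cerebrum. In the cerebellum it measured 14.89, 15.01, 15.10 and 15.10 in mutants and 14.51, 14.80, 14.65 and 14.38 in controls. Every mutant array lay above every control array of its region, by a margin of less than 0.1 at the closest point. The difference was 0.44 ± 0.12 (SE) in the cerebrum (1.35-fold, limma adjusted p = 0.0372) and 0.44 ± 0.11 in the cerebellum (1.36-fold, limma adjusted p = 0.0306). A second Cxcl12 probe set, dimmer than the first, averaged 12.73 ± 0.36 in mutant cerebrum and 11.64 ± 0.08 in control cerebrum. It averaged 12.58 ± 0.52 in mutant cerebellum and 11.93 ± 0.18 in control cerebellum, and 12.38 ± 0.22 in ret mutants against 11.49 ± 0.18 in ret controls (SD, n = 4 each). That set separated mutants from controls in all 3 comparisons.

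Both Cxcl12 calls depended on single arrays. With the sex label as a covariate, the change was 0.39 in the cerebrum, where the call was lost (limma adjusted p = 0.0540). It was 0.44 in the cerebellum, where the call held (limma adjusted p = 0.0484). In the cerebrum the call was lost without R26P control 1, 3 or 4 (adjusted p = 0.0676, 0.0875 and 0.0881) or mutant 2, 3 or 4 (adjusted p = 0.0865, 0.0814 and 0.0676). In the cerebellum it was lost without R26P control 1, 3 or 4 (adjusted p = 0.0765, 0.0507 and 0.0546) or mutant 2, 3 or 4 (adjusted p = 0.0674, 0.0811 and 0.0692).

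Cxcl14, a chemokine expressed in epithelia and nervous tissue, measured 4.80, 5.01, 5.11 and 5.11 in R26P mutant cerebrum, against 5.47, 5.23, 5.78 and 5.52 in R26P control cerebrum. The groups did not overlap, and the difference was -0.50 ± 0.13 (SE, limma adjusted p = 0.0352). The values 4.80 and 5.11 recur unchanged on arrays of other groups, so they may be background, and no exact fold is given. The call held in 1 of 8 fits that left out an array, with adjusted p between 0.0236 and 0.0793, and was lost without control 1, 3 or 4 or any single mutant. With the sex label as a covariate the call was also lost (log2 change -0.51, limma adjusted p = 0.0536). A second probe set averaged 3.29 ± 0.02 in mutant cerebrum and 4.39 ± 0.05 in control cerebrum (SD, n = 4 each), and the mean of the probe sets gave a difference of -0.80 (limma adjusted p = 0.000581). In that second set, mutant cerebrum 1, 2 and 3 shared the value 3.30. In the cerebellum Cxcl14 measured 4.80, 4.80, 5.11 and 5.68 in mutants and 5.32, 5.11, 5.77 and 5.24 in controls, with overlap (limma adjusted p = 0.461).

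**Figure D3:**
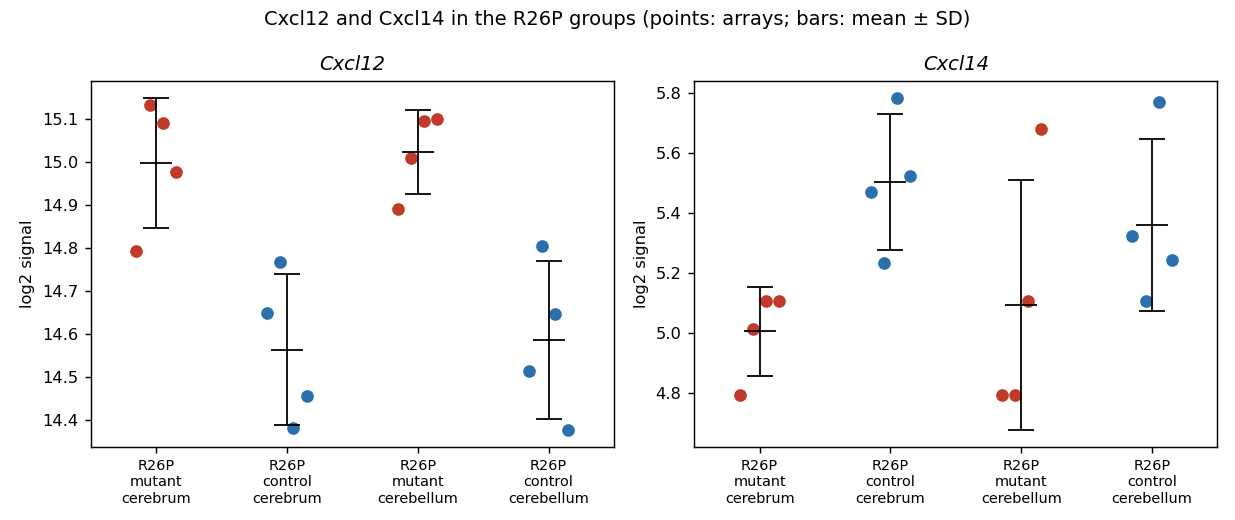
Log2 signal of Cxcl12 and Cxcl14 in the R26P groups, with each array as a point, bars at the group mean ± SD, and mutants left of controls in each region. Cxcl12 lies higher in mutants of both regions by 0.44, and Cxcl14 lies lower in mutant cerebrum by 0.50.

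Members called in ret mutants were spread widely among the R26P arrays. Cxcl16 measured 6.34, 6.94, 7.40 and 8.63 in R26P mutant cerebrum and 6.58, 5.93, 6.80 and 6.79 in its controls. In the cerebellum it measured 6.76, 6.65, 7.09 and 8.84 in mutants and 7.56, 6.78, 7.21 and 7.01 in controls. Neither difference passed (0.81 and 0.19, limma adjusted p = 0.26 and 0.81). Cxcl10 measured 6.02, 5.80, 7.34 and 8.53 in mutant cerebrum and 5.06, 6.02, 5.50 and 5.91 in control cerebrum. In the cerebellum it measured 7.00, 5.75, 7.33 and 9.33 in mutants and 7.35, 6.77, 7.50 and 8.10 in controls. Its differences were 1.30 ± 0.59 in the cerebrum and -0.08 ± 0.69 in the cerebellum (limma adjusted p = 0.163 and 0.949). Ccr6 was at 2.16 to 2.18 on all 8 R26P mutant arrays, while R26P controls 2 and 3 measured 4.40 and 8.18 in the cerebrum and 3.79 and 5.28 in the cerebellum. That difference did not pass in the cerebrum (limma adjusted p = 0.28).

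Much of the spread in R26P mutants lay in number 4. It gave the highest array of its group for 16 of 21 members in the cerebrum (76.2%, against 18.5% of all genes tested) and for 18 of 21 in the cerebellum (85.7%, against 24.1%). Ccl5 measured 6.79 on its cerebellum array and 7.64 on its cerebrum array, and 2.71 on the other 6 mutant and all 8 control arrays. Cxcl13 measured 5.96, 8.52, 6.33 and 11.60 in mutant cerebrum and 4.49, 3.61, 7.32 and 7.88 in control cerebrum, again highest in number 4. Cxcl9 measured 3.19, 2.49, 2.71 and 5.67 in mutant cerebellum and 3.20, 2.67, 2.81 and 6.13 in mutant cerebrum, with the controls at 2.16 to 2.71. Cxcr4 measured 4.48 in the cerebrum and 5.51 in the cerebellum of number 4, and 2.38 to 2.70 on the other R26P mutant arrays.

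Several markers were also high in mutant number 4, although over the R26P mutants 3 of 12 microglia and macrophage markers fell in the cerebrum and 2 of 12 in the cerebellum, and none rose. The mean microglia and macrophage level was 10.3 in its cerebrum, against 8.73 to 9.21 in the other mutants, and 9.99 in its cerebellum, against 8.52 to 8.91. Lyz2 measured 13.11 and 13.13 in its cerebrum and cerebellum. Plac8 was highest there, at 11.28 and 10.62, and was called higher over all R26P mutant cerebrum arrays (log2 change 5.16, limma adjusted p = 0.00397), each mutant lying between 8.34 and 11.28 and the controls between 2.77 and 5.14. Cd3e, the T cell receptor component, was at 2.25 and 2.16. The pericyte level was the lowest of its group, at 6.61 in the cerebrum and 7.71 in the cerebellum. The part of these markers in the chemokine values was not tested.

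No member's mutant effect was called different between the 2 regions of R26P mice (limma, 0 of 21, against 0.116% of all genes). At an unadjusted p below 0.05 the count was also 0 of 21 members, against 309 of all genes tested. For Cxcl12 the effect in the cerebellum minus that in the cerebrum was 0.00 ± 0.16. These values come from a fit without the replicate number, although arrays of the same number deviated together between regions. With the number as a block, shared by mutants and controls, no member was called either. Neither fit shows that the effects were alike. Between models, the effect in ret mutants minus that in R26P mutant cerebrum was called for 1 member, Ccr6 (4.76% of members, against 1.67% of all genes with a higher effect in ret). The difference was 7.31 ± 1.80 (limma adjusted p = 0.0409). It rests on floored values, since Ccr6 was at 2.16 to 2.18 in all R26P mutants, in 3 of 4 ret controls and in R26P control cerebrum 1 and 4. Over the 16 fits that left out an array, adjusted p ran from 0.0275 to 0.0872, and the call was lost without ret control 1, 2 or 3, ret mutant 2 or 4, R26P control cerebrum 2 or R26P mutant cerebrum 1, 2 or 3. The models differ in strain background and age and possibly in region, which cannot be told apart from genotype here. For Cxcl16 the difference of effects was 1.96 ± 0.63 (limma adjusted p = 0.0956), and for Ccl5 it was 0.42 (limma adjusted p = 0.868).

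Between regions of control mice, Cxcl2 stood higher in the cerebellum. In WT it measured 6.52, 6.32 and 6.43 in the cerebellum, against 2.22, 2.78 and 2.22 in the cerebrum. The groups were about 4 log2 units apart and narrow, and the difference was 4.01 ± 0.17 (SE, limma adjusted p = 0.00181). The cerebrum values lie near the floor of 2.17, so the difference gives no exact fold. It was the 1 member called among 21 (4.76%), against 1.78% of all genes that were higher in WT cerebellum. Arrays of the same replicate number deviated together between regions, and with that number as a block Cxcl2 (limma adjusted p = 0.0283) and Cxcl1 (limma adjusted p = 0.0336) were called, against 0.987% of all genes. Cxcl1 measured 9.11, 8.25 and 8.85 in WT cerebellum, against 7.76, 6.60 and 7.05 in WT cerebrum, a difference of 1.60 ± 0.35 (SE) without the block (limma adjusted p = 0.104).

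The same pair was compared in R26P controls. Cxcl2 measured 6.77, 5.60, 7.64 and 8.19 in the cerebellum, against 3.45, 2.16, 4.32 and 4.13 in the cerebrum, with no overlap. The difference was 3.54 ± 0.65 (SE), with limma adjusted p = 0.0526 without the block and 0.0025 with it. Without the block Cxcl10 was the 1 member called (4.76%), against 0.889% of all genes higher in the cerebellum. Its difference was 1.81 ± 0.31 (3.50-fold, limma adjusted p = 0.0403), and the call was lost in 7 of 8 fits that left out 1 array: without cerebrum 1, 2, 3 or 4 (adjusted p = 0.105, 0.0551, 0.130 and 0.0953) or cerebellum 1, 3 or 4 (adjusted p = 0.114, 0.0694 and 0.0862). With the block, 6 of 21 members were higher in the cerebellum, against 3.10% of all genes: Ccl12, Ccl2, Ccl3, Ccl4, Cxcl10 and Cxcl2.

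Their values in R26P controls were as follows. Ccl2 measured 5.33, 4.90, 5.84 and 5.85 in the cerebellum and 4.63, 4.04, 4.63 and 4.57 in the cerebrum (difference 1.01 ± 0.12, limma adjusted p = 0.0188 with the block). Ccl12 measured 9.10, 7.44, 9.84 and 8.96 in the cerebellum and 7.04, 4.61, 8.57 and 7.23 in the cerebrum (difference 1.97 ± 0.25, limma adjusted p = 0.0229 with the block). Within each number the cerebellum was the higher one, although the groups of Ccl12 overlapped. Ccl3 measured 10.69, 9.60, 11.40 and 11.84 in the cerebellum and 7.66, 5.20, 9.69 and 9.06 in the cerebrum (difference 2.98 ± 0.42, limma adjusted p = 0.0287 with the block). Ccl4 measured 6.04, 4.24, 7.08 and 7.45 in the cerebellum and 3.39, 3.32, 4.43 and 3.87 in the cerebrum (difference 2.45 ± 0.42, limma adjusted p = 0.0453 with the block). Both are made by activated microglia and macrophages. In WT, Ccl3 measured 7.05, 6.67 and 7.70 in the cerebellum and 4.92, 3.60 and 5.83 in the cerebrum, apart by value (limma adjusted p = 0.138 without the block and 0.059 with it), while Ccl4 was at 2.55 to 3.08 on all 6 WT arrays.

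**Figure D4:**
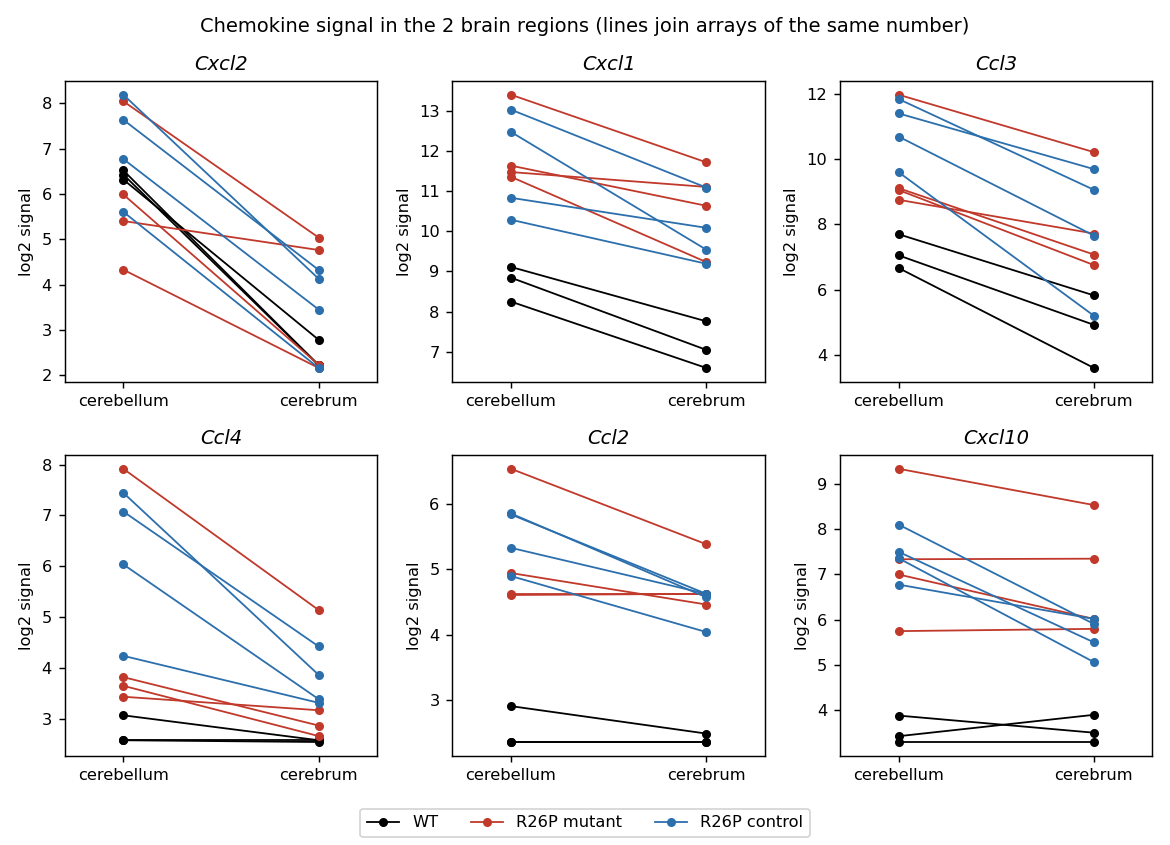
Log2 signal of Cxcl2, Cxcl1, Ccl3, Ccl4, Ccl2 and Cxcl10 (1 panel each) in the cerebellum and cerebrum of WT mice, R26P mutants and R26P controls, with arrays of the same replicate number joined by a line. Cxcl2 lies higher in the cerebellum in every WT and R26P pair.

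Of the 6 members called with the block in R26P controls, Cxcl2, Ccl3, Ccl4 and Ccl12 were also higher by value in the cerebellum in 4 of 4 R26P mutant numbers, while Ccl2 and Cxcl10 were so in 2 of 4. Cxcl1, not called in R26P controls, was higher in the cerebellum in 4 of 4 numbers of both genotypes. The gap of Cxcl2 ranged from 0.64 to 3.76 among mutant numbers, that of Ccl3 from 1.03 to 2.30 and that of Cxcl1 from 0.37 to 2.12. Mutant number 3 carried Gh at 14.89 in the array labelled cerebrum and at 14.75 in that labelled cerebellum, where the other cerebellum arrays were at 2.17 to 2.85, so its region labels are not settled. In WT cerebellum against cerebrum, Ccr6 measured 9.65, 9.72 and 9.70 against 10.64, 10.15 and 10.15 (difference -0.62 ± 0.15, limma adjusted p = 0.117). Cxcl14 measured 4.25, 3.98 and 3.86 in WT cerebellum and 4.61, 4.43 and 5.98 in WT cerebrum, and did not pass (limma adjusted p = 0.334). Beside these values, the mean microglia and macrophage level was 9.16 to 9.47 in WT cerebellum and 9.498 to 9.78 in WT cerebrum, and 9.28 to 10.0 in R26P control cerebellum and 9.14 to 10.3 in R26P control cerebrum. Pericyte markers were higher in the cerebellum for 3 of 7 tested in WT and 5 of 7 in R26P controls, and perivascular fibroblast markers for 2 of 5 in WT. Astrocyte markers were higher for 1 of 5 in WT, and higher for 1 and lower for 3 of 5 in R26P controls. The mean level of 6 pituitary hormone genes was 4.22, 9.75, 9.93 and 3.95 in R26P control cerebrum. It was 3.31 to 3.56 in R26P control cerebellum. In WT it was 3.45, 4.41 and 8.73 in the cerebrum and 3.38 to 3.48 in the cerebellum. None of the 6 was called between regions in WT or in R26P controls. The part of all these markers was not tested.

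Some members varied with the replicate number far more than with the region. Cxcl11 measured 6.40, 5.23, 9.81 and 10.31 in R26P mutant cerebellum and 5.93, 6.003, 9.71 and 10.34 in R26P mutant cerebrum. In R26P controls it measured 8.69, 9.37, 5.80 and 6.08 in the cerebellum and 8.22, 9.35, 5.43 and 5.91 in the cerebrum. Mutant numbers 3 and 4 and control numbers 1 and 2 were thus high in both regions, and the rest low in both. The mean of the regions spanned 4.71 log2 units between mutant numbers and 3.75 between control numbers, while the largest gap between the regions of a number was 0.77 in mutants and 0.47 in controls. The second Cxcl11 probe set did not show these steps, at 3.55 to 4.38 over the R26P groups. Ccl27a behaved likewise, with mutant numbers 3 and 4 low at 4.60 and 5.52 in the cerebrum and 4.90 and 6.21 in the cerebellum, against 7.36 to 7.62 in numbers 1 and 2. Its range between numbers was 2.79 in mutants and 2.55 in controls, and its largest region gap 0.69 and 0.68. The R26P mice were of mixed C57/SV129 background, and its part in these steps was not tested.

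**Figure D5:**
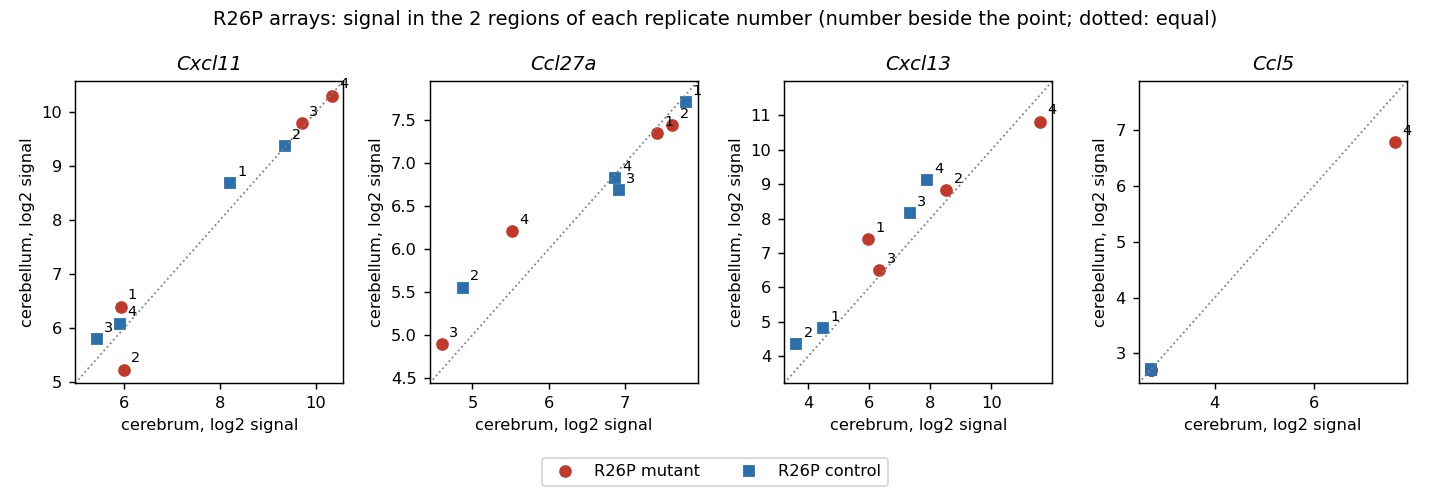
Log2 signal in the cerebellum (vertical axis) against that in the cerebrum (horizontal axis) of the same replicate number, for R26P mutants and R26P controls, 1 panel per gene. Points near the diagonal, as for Cxcl11 and Ccl27a, have like values in both regions, and Ccl5 has 1 high point, mutant number 4, with the other 7 numbers lying together at about 2.71.

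The remaining tested members did not pass between R26P genotypes. Ccr2 was at 3.57 to 4.22 in R26P mutants and 3.57 to 3.71 in R26P controls, and at 4.50 to 4.85 in WT. Ccl25, a ligand of Ccr9, was at 2.50 to 3.04 in R26P mutants and 2.55 to 3.85 in R26P controls, and at 4.15 to 4.61 in WT. Both thus passed the filter mainly through the WT arrays, which were treated as normalized apart. Cxcl1 measured 10.64, 9.23, 11.10 and 11.72 in R26P mutant cerebrum and 10.09, 9.19, 11.09 and 9.54 in R26P control cerebrum, a difference of 0.70 that did not pass (limma adjusted p = 0.437). Ccl6 measured 7.80, 7.62, 7.93 and 10.37 in R26P mutant cerebrum and 8.54, 7.23, 9.77 and 8.67 in R26P control cerebrum. Ccl9 measured 7.44, 7.38, 7.83 and 10.54 in mutant cerebrum and 8.86, 7.62, 10.06 and 9.07 in control cerebrum. Neither passed, and in both number 4 lay more than 2 log2 units above the other mutants. In the cerebellum, Cxcl1 measured 11.63, 11.36, 11.47 and 13.40 in mutants and 10.83, 10.29, 13.03 and 12.47 in controls. Ccl6 measured 7.66, 7.02, 7.85 and 10.35 in mutants and 8.99, 7.93, 9.77 and 9.21 in controls, and Ccl9 measured 7.71, 6.79, 7.90 and 10.47 in mutants and 10.62, 8.62, 9.55 and 9.88 in controls. All 3 overlapped between genotypes. Ccl3 measured 9.11, 9.05, 8.75 and 11.97 in R26P mutant cerebellum and 7.08, 6.76, 7.72 and 10.21 in R26P mutant cerebrum, and Ccl2 measured 4.94, 4.61, 4.63 and 6.54 in the cerebellum and 4.46, 4.63, 4.63 and 5.38 in the cerebrum of these mutants. Cxcl2 measured 5.99, 4.33, 5.40 and 8.04 in R26P mutant cerebellum and 2.23, 2.16, 4.76 and 5.04 in R26P mutant cerebrum. Their highest arrays were those of number 4.

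The members called in mutants, other than Cxcl2, did not pass between the WT regions. Cxcl12 measured 14.32, 14.43 and 14.55 in WT cerebellum and 14.60, 14.48 and 14.68 in WT cerebrum. Cxcl16 measured 3.93, 3.88 and 5.13 in the cerebellum and 4.20, 3.88 and 4.96 in the cerebrum. Both overlapped between the regions. Cxcl10 measured 3.43, 3.89 and 3.30 in WT cerebellum and 3.90, 3.51 and 3.30 in WT cerebrum, and Cxcl11 measured 6.70, 6.11 and 6.35 in the cerebellum and 6.44, 6.66 and 6.91 in the cerebrum. Ccl2 was at 2.36 to 2.91 and Ccl5 at 2.23 to 2.38 on all 6 WT arrays. Ccl6 measured 7.03, 6.62 and 7.09 in the cerebellum and 7.37, 6.81 and 7.35 in the cerebrum, and Ccl9 measured 8.12, 7.60 and 8.27 in the cerebellum and 8.60, 7.35 and 8.50 in the cerebrum. None of these passed the test, which with 3 arrays a region does not show that the levels were alike.

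Of 31 further genes of chemokine signalling (atypical ligands and receptors, signalling proteins and inflammatory regulators), 28 had a single-gene probe set and 25 were tested. In ret mutants 6 rose and 1 fell, in R26P mutant cerebrum 2 rose and 1 fell, and in R26P mutant cerebellum 1 rose and 2 fell, where 16.6%, 18.7% and 15.6% of all genes were called. The R26P shares thus lie below those of all genes. Their median log2 changes were 0.23, 0.06 and -0.34 in these comparisons, against 0.01, 0.01 and 0.00 for all genes tested. Cx3cl1, the membrane-anchored ligand that endothelium and neurons present to Cx3cr1, rose in all 3. It measured 11.997, 11.62, 11.64 and 11.84 in ret mutants and 10.09, 9.77, 10.02 and 10.84 in ret controls (difference 1.59 ± 0.23, 3.02-fold, limma adjusted p = 0.00366). In the R26P model it measured 11.54, 12.04, 11.79 and 11.71 in mutant cerebrum and 10.14, 10.22, 9.90 and 10.03 in control cerebrum, a 3.24-fold difference (limma adjusted p = 0.000188). The cerebellum gave a 3.53-fold difference (limma adjusted p = 0.000121). Every mutant array of the 3 comparisons lay above its controls.

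Rarres2, which encodes the attractant chemerin, fell in all 3 comparisons, by 2.11 in ret mutants, 2.36 in R26P mutant cerebrum and 2.28 in R26P mutant cerebellum on the log2 scale (limma adjusted p = 0.0127, 0.00173 and 0.00484). Dpp4, a surface protease that trims chemokines, rose 3.69-fold in ret mutants and 2.12-fold in R26P mutant cerebrum (limma adjusted p = 0.0257 and 0.0296). Ackr3, the atypical receptor that takes up Cxcl12, fell by 0.71 on the log2 scale in R26P mutant cerebellum (limma adjusted p = 0.0109). In ret mutants the cytokine gene Il1b also rose, at 7.17, 6.75, 9.01 and 7.96 against 6.17, 4.09, 4.39 and 4.97 in ret controls (7.06-fold, limma adjusted p = 0.0181). Rac2, a GTPase of blood cells, Rgs2, a regulator of G protein signalling, and Arrb1, an arrestin, rose there too (2.57-fold, 2.41-fold and by 0.33 on the log2 scale, with limma adjusted p = 0.00643, 0.0204 and 0.0156).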

How the data were processed

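RNA of microvascular fragments of mouse brain had been measured on 30 arrays in 8 groups of 3 or 4. About 100 ng of total RNA per sample was amplified, per the labels' protocols. The deposited values are log2 signals that the authors made with GCRMA 2.6.0 in R 2.4.1, per the submitters' processing notes. GCRMA corrects background by probe sequence and normalizes arrays together. The deposited log2 values of the 24 ret and R26P arrays have a floor of 2.16, and those of the 6 WT arrays a floor of 2.17, so the 2 sets were treated as normalized apart. A value at the floor has no order. For arrays, the number of arrays limits the precision.

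Probe sets numbered 45101, of which 34958 were paired with exactly 1 gene, 932 with several and 9211 with none. The 4 probe sets paired with several chemokine genes were left out. For genes with several probe sets (16 of the 45 members) the one with the highest mean over all arrays was used. Genes above 4 on at least 3 arrays, 11243 of 18194, were tested in R 4.3.3 with the moderated linear models of limma 3.58.1 at its default prior, two-sided, each comparison on its own arrays. The p-values were adjusted after Benjamini and Hochberg over the 11243, with a threshold of 0.05. The fits were tested on simulated data. The labels call samples of a group biological replicates, and say nothing of litters or shared preparation days.

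Replicate numbers in the labels pair the 2 regions: the correlation of deviations from the group means was 0.344 to 0.483 for WT pairs, 0.479 to 0.650 for R26P controls and 0.546 to 0.840 for R26P mutants, and every array correlated best with its own number. The members and all gene lists were chosen with earlier results of these data known. Named genes were every tested member, with values per array for the members called in a comparison, the 5 with the highest mean, and Cxcl12, Cxcr4, Cxcl10, Cxcl9, Ccl5, Ccl2 and Ccr2. Other genes of chemokine signalling were named where called in a mutant comparison. Alternatives changed the filter, probe set choice, normalization, prior, block, covariates and arrays.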

Additional observations from a re-analysis of the deposited data

Results flagged for a closer look

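Combinations of a tested member with a group of 4 arrays were searched where at least 1 array exceeded 4. In 16 of these 104 (15.4%), 1 array stood apart from the other 3 by more than chance gives in about 1 of 20 groups. Some combinations entered only through their 1 high array, and where the other 3 share 1 value any gap is flagged. The 15.4% therefore cannot be set against 1 in 20. Of the 16, 11 lay in R26P mutant number 4. In its cerebellum the values were 10.46 for Ccl12 (nearest other array 7.57), 11.97 for Ccl3 (9.11), 7.92 for Ccl4 (3.83), 6.79 for Ccl5 (2.71), 4.19 for Ccr1 (3.18) and 13.40 for Cxcl1 (11.63). In its cerebrum they were 7.64 for Ccl5 (2.71), 10.37 for Ccl6 (7.93), 10.54 for Ccl9 (7.83), 4.85 for Ccr1 (3.14) and 6.13 for Cxcl9 (3.20).

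The other 5 lay in 3 groups. Ccl2 measured 4.69 in ret mutant 4 (nearest 4.63), 4.04 in ret control 2 (4.56) and 4.04 in R26P control cerebrum 2 (4.57). Cxcl14 measured 5.42 in ret control 2 (5.11), and Ccr6 measured 5.99 in ret control 4, the other 3 ret controls being at 2.16. The effect on Ccr6 differed between models, by 7.31 (ret minus R26P cerebrum) on the log2 scale, a difference that rests on values at the floor in several groups.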

How the results depend on the processing

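Results for single members were followed where a member was called or changed by at least 1 log2 unit. Among them, 662 alternatives left direction and call as they were, many by staying uncalled. A call was lost in 83, all for called members, and 13 gained one. None reversed and 2 moved to 0.00 (Ccl5 in R26P cerebrum and cerebellum without mutant replicate 4). Only Ccl5 in ret and Cxcl2 in WT regions kept their call in every alternative that tested them, and neither was tested with a mean above 6. Ccl5 passed the filter through mutant arrays alone, and all 4 ret controls share 1 background value. Its kept call is therefore no added support. Members called in ret (6) became 3 with a mean above 6, 1 with the pituitary covariate and 2 without the 3 arrays of high Gh (1 mutant array remains), an alternative chosen after seeing the data. In R26P cerebrum (2) they became 0 without the filter, after quantile normalization, with the replicate block, with sex as a covariate or without number 3, and 1 with a mean above 6 or the trended prior. In R26P cerebellum (1) they became 0 without the filter, with the probe set mean, the replicate block or without number 3. In WT regions (1) they became 0 with a mean above 6 and 2 with the trended prior or the replicate block. In R26P control regions (1) they became 0 without the filter or with the probe set mean, 2 with the trended prior and 6 with the replicate block. Between models (1) they became 0 without the filter, with a mean above 6 or with the replicate block.

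Genes called overall in ret (1870) became 1229 without the filter, 987 with the replicate block, 892 with the covariate and 919 without the arrays of high Gh. R26P cerebrum (2097) gave 1390 without the filter and 1278 with the replicate block. R26P cerebellum (1758) gave 1081 without the filter and 1117 without number 3. WT regions (238) gave 58 without the filter, 151 with a mean above 6 and 135 with the replicate block. R26P control regions (132) gave 47 without the filter, 68 with the probe set mean and 475 with the replicate block. The effect between regions (13) gave 6 without the filter, 0 with a mean above 6, 4 with the probe set mean, 6 without number 3 and 29 with the block within genotype, chosen after seeing the data. Between models (377), 177 were called without the filter and 239 with the replicate block.

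Leaving out 1 array gave 3 to 8 members and 1153 to 1931 genes in ret, 0 to 2 and 1387 to 1945 in R26P cerebrum, 0 to 1 and 1117 to 1572 in R26P cerebellum, and 1 and 12 to 159 in WT regions. It gave 0 to 3 and 48 to 193 in R26P control regions, 0 and 6 to 14 between regions, and 0 to 3 and 127 to 611 between models. Mutants and controls share only a replicate number: same-number correlations ran from -0.199 to 0.0251 in ret, -0.140 to 0.337 in R26P cerebrum and -0.162 to 0.273 in R26P cerebellum. The cause of these shifts was not tested. Low signal limits the receptors, and 3 or 4 arrays a group limit every call.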
